A study of Mus musculus with 4 samples.

Results

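The clustered protocadherins were examined here through the 574 CpG cytosines that were read at a depth of at least 10 in every mouse and lay in a first exon of a Pcdha, Pcdhb or Pcdhg transcript or within 1000 bp upstream of it on chromosome 18 (mm10). Of these, 535 lay in first exons and 39 in the upstream windows, which are called promoters below. The 574 cytosines marked 504 CpGs in 42 of the 58 annotated genes, and the whole series held 1276684 cytosines common to all mice (CpG10). The alpha cluster contributed 130 cytosines, the beta cluster 84 and the gamma cluster 360.

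ERRBS, a bisulfite method that reads the ends of restriction fragments such as those of MspI, had been applied to whole livers. They came from 4 male mice aged 6 to 8 weeks on a normal diet. Mixed-1 and Mixed-2 came from an undefined mixed background that includes C57BL/6J, and B6-1 and B6-2 were C57BL/6 (Black-6) mice. The strains were kept at different institutions, and effects of strain and of housing cannot be told apart. No mouse was treated, and each library was 1 animal. Where 4 values stand in a row without names, they belong to Mixed-1, Mixed-2, then to B6-1, B6-2.

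The protocadherins of these clusters are adhesion molecules of the cadherin superfamily, known above all from neurons, where each cell uses its own combination of them. Every alpha and gamma variable exon has a promoter of its own and codes for the extracellular part of a protein. It is spliced to constant exons that the whole cluster shares, whereas the beta genes have no constant exons. Promoter methylation and loops held by CTCF and cohesin take part in the choice of promoter in neurons, and the C-type genes at the ends of the alpha and gamma clusters (Pcdhac1, Pcdhac2, Pcdhgc3, Pcdhgc4 and Pcdhgc5) are used more uniformly than the others.

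Coverage summed over the deposited cytosines was between 60654199 in Mixed-1 and 99215153 in B6-1, where a read counts once at each cytosine it covers. Both B6 libraries were deeper than both Mixed libraries. Over the region that holds the clusters the median coverage of a cytosine was 35 reads in Mixed-1, 38 in Mixed-2 and 59 in each B6 mouse. A cytosine at 10 reads has a level in steps of 10 points, and single sites were read less deeply in the Mixed mice. Among hepatocyte genes, 3 of 8 had at least 5 common cytosines in the window of first exons and promoter. The mean level of that window was 0.716% for Apoa2, 27.5% for Hnf4a and 30.0% for Fgb. The endothelial Kdr window was at 0.428%, no leukocyte gene of 4 had such a window, and the neuronal Syt1, Snap25 and Rbfox3 windows were at 2.79%, 1.42% and 23.4%. RNA data were not analysed here. The tissue label could not be checked on these few windows, since every neuronal and endothelial window lay below those of Hnf4a and Fgb.

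Coverage of the clusters was partial and followed the MspI sites. All 574 cytosines lay on a CpG of the reference, and 568 lay within 50 bases of an MspI fragment end. For 458 of these the fragment measured 70 to 320 bp. The 568 cytosines lay on 216 fragment ends of any length, so cytosines of 1 end share reads and are not independent of each other. The 14 alpha first exons held 1591 CpGs in the reference, and 103 of them, in 9 genes, were read in all mice through 119 cytosines. In the 22 beta genes 72 of 1653 CpGs were read through 76 cytosines in 12 genes, and in the 22 gamma genes 296 of 2228 CpGs through 340 cytosines in 21 genes. The beta exons were CpG-poorer, with a median observed-to-expected CpG ratio of 0.417 against 0.660 in alpha and 0.552 in gamma. Of the 16 genes without a common cytosine, Pcdhga6 was the only gamma member. In 11 of the 16 no cytosine lay within reach of a read from a fragment of 70 to 320 bp.

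Clustered protocadherin DNA was partly methylated in liver. The mean level of the 574 cytosines was 34.1%, 32.6%, 33.7% and 35.7% by mouse. All CpG10 sites together had a mean between 28.4% and 28.7%. The members differed from them also in the classes of their sites. Between 45.5% and 51.0% of the clustered protocadherin cytosines in a mouse had a level of 20% to 80%, or 47.9% ± 2.55 (SD, n = 4), beside 12.2% ± 0.276 (SD, n = 4) of all CpG10 sites. Hypermethylated sites, above 80%, made up 10.8% ± 1.40 (SD, n = 4) of the members and 22.5% ± 0.33 (SD, n = 4) of all sites. In whole liver, full methylation in some cells or alleles and partial methylation in all of them cannot be told apart, nor can the cell types.

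At the level of genes the same held. Of the 42 genes, 30 had at least 5 common cytosines, and 25 of these 30 windows, or 83.3%, had a mean level of 20% to 80%. Among the 16531 other genes of the annotation with such a window, 7.76% did, and 86.5% were below 20%. First exons of the clustered protocadherins are unusually long. Among the 2335 other genes with a first exon of at least 1500 bp, 12.4% of the windows were between 20% and 80%. The median window level was 36.9% for the clustered protocadherins, 1.81% for the genes with long first exons and 0.370% for all genes outside the clusters.

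**Figure D1:**
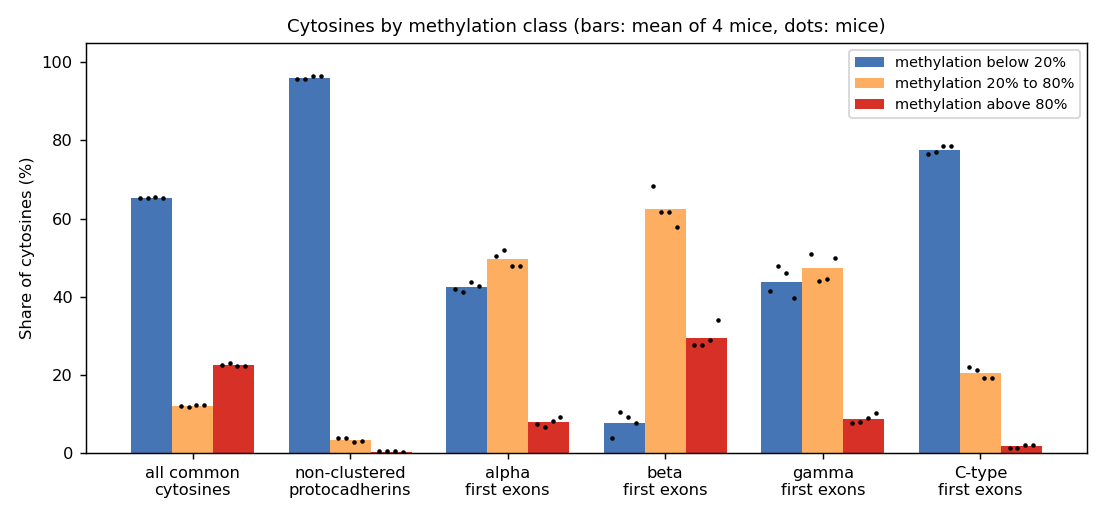
Share of cytosines (%) with methylation below 20%, from 20% to 80% and above 80%, for all CpG10 sites, the non-clustered protocadherins, the first exons of each cluster and the C-type first exons. Bars are means of 4 mice and dots are mice; the middle class holds 62.5% of beta, 49.6% of alpha and 47.4% of gamma first exon cytosines, against 12.2% of all CpG10 sites.

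The spread between mice was somewhat above that of read counting. Across the 290 members with a mean level between 20% and 80%, the median SD between the mice was 8.97 points, and the SD that read counting alone gives had a median of 6.95 points. Across all CpG10 sites of the same range the SD between mice was 8.47 points. The 70 CpGs read on both strands differed between strands by a median of 2.25 points. A gap over 20 points was found at 2 of them, both in the Pcdhgc5 first exon and singled out after their values were seen. The first lay 2022 bp from the start. Its forward cytosine was at 0%, 2.04%, 8.57% and 0%, and its reverse cytosine at 61.5%, 63.0%, 64.0% and 64.3%. The second, at 1976 bp, had its forward cytosine at 43.1% and its reverse cytosine at 15.9% on average, and the forward one was the higher in all mice. The strand with the higher level thus differed between the CpGs, and the source of the gaps was not tested.

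The non-clustered protocadherins, which encode related cadherins outside the clusters, gave a different picture. The mean level of the 776 cytosines in their first exons and promoters, in 10 of the 12 listed genes, was 3.83%, 3.92%, 3.38% and 3.65%. Clustered members were higher by 30.3 points ± 1.35 (SD, n = 4) and in each of the 4 mice, with an exact two-sided sign-flip permutation p of 0.13 (2 of 16 sign assignments), the smallest that 4 mice allow. This limit applies to every comparison within mice below, so none can reach 0.05. Of the 10 non-clustered windows, 9 were below 20%, from 0.384% for Pcdh1, which lies on the same chromosome, to 6.30% for Pcdh8. Pcdh12, a protocadherin known from endothelium, was the exception at 72.9% ± 0.787 (SD, n = 4). Taf7, a gene for a subunit of the general transcription factor TFIID that starts between the beta and gamma genes, had a window level of 0.239% over 44 cytosines, so partial methylation was not shared by every start in the region. The 16 genes known to shape or silence the clusters, among them Ctcf, Rad21 and Smchd1, were all below 20%. Their highest was Wiz at 14.7%, and their median was 0.126%.

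The beta cluster was the most methylated. The mean over the 76 beta first exon cytosines was 60.2%, 59.9%, 62.3% and 64.1%. The 119 alpha cytosines had means of 32.3%, 33.4%, 33.3% and 34.0%. The 340 gamma cytosines had means of 31.0%, 28.7%, 30.1% and 32.4%. Beta lay above both other clusters in every mouse, and alpha above gamma by little. Beta exceeded gamma by 31.0 points ± 1.33 (SD, n = 4) with an exact permutation p of 0.13, or 0.15 after Benjamini-Hochberg adjustment over the 6 cluster differences. Alpha minus beta was -28.3 points ± 1.55 (SD, n = 4), with the same exact p values.

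The place of alpha between the other clusters changed when its C-type genes were left out. Alpha minus gamma was 2.69 points ± 1.62 (SD, n = 4), positive in all 4 mice with an exact p of 0.13. Pcdhac2 alone supplied 52 of the 119 alpha cytosines. Without the C-type genes, a setting chosen after seeing the data, the alpha mean was 56.1%, and alpha exceeded gamma by 19.9 points and fell short of beta by a difference of -5.48 points. With each gene weighted equally these differences were 18.4 and -10.1 points. The order beta, alpha, gamma was kept in these settings, while the distances were not.

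Within each cluster the genes spread widely, and far more than the mice did. The mean of a first exon ran from 8.12% to 77% in alpha, from 29.7% to 85.3% in beta and from 1.64% to 85.7% in gamma. The median SD between mice for a gene was 3.42 points. Of the 42 first exons, 35 had a mean between 20% and 80%, 5 were below and 2 above. The 5 low exons were Pcdhac2, Pcdhga2, Pcdhga5, Pcdhgc3 and Pcdhgc4, and the 2 high ones Pcdhb20 and Pcdhga7. Their levels rest on few read ends in several genes, since 13 of the 42 exons had 4 or fewer common cytosines. They also rest on the stretch read, and the 8 common cytosines of Pcdhga2 lay 17 to 285 bp from its start. Both B6 mice were read at 17 cytosines of the Pcdhga2 window, with means of 44.4% and 50.0%. For Pcdhga5 their means were 26.6% and 31.0% over 13, so there neither gene was below 20%. The Mixed mice were read at fewer cytosines of both windows.

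**Figure D2:**
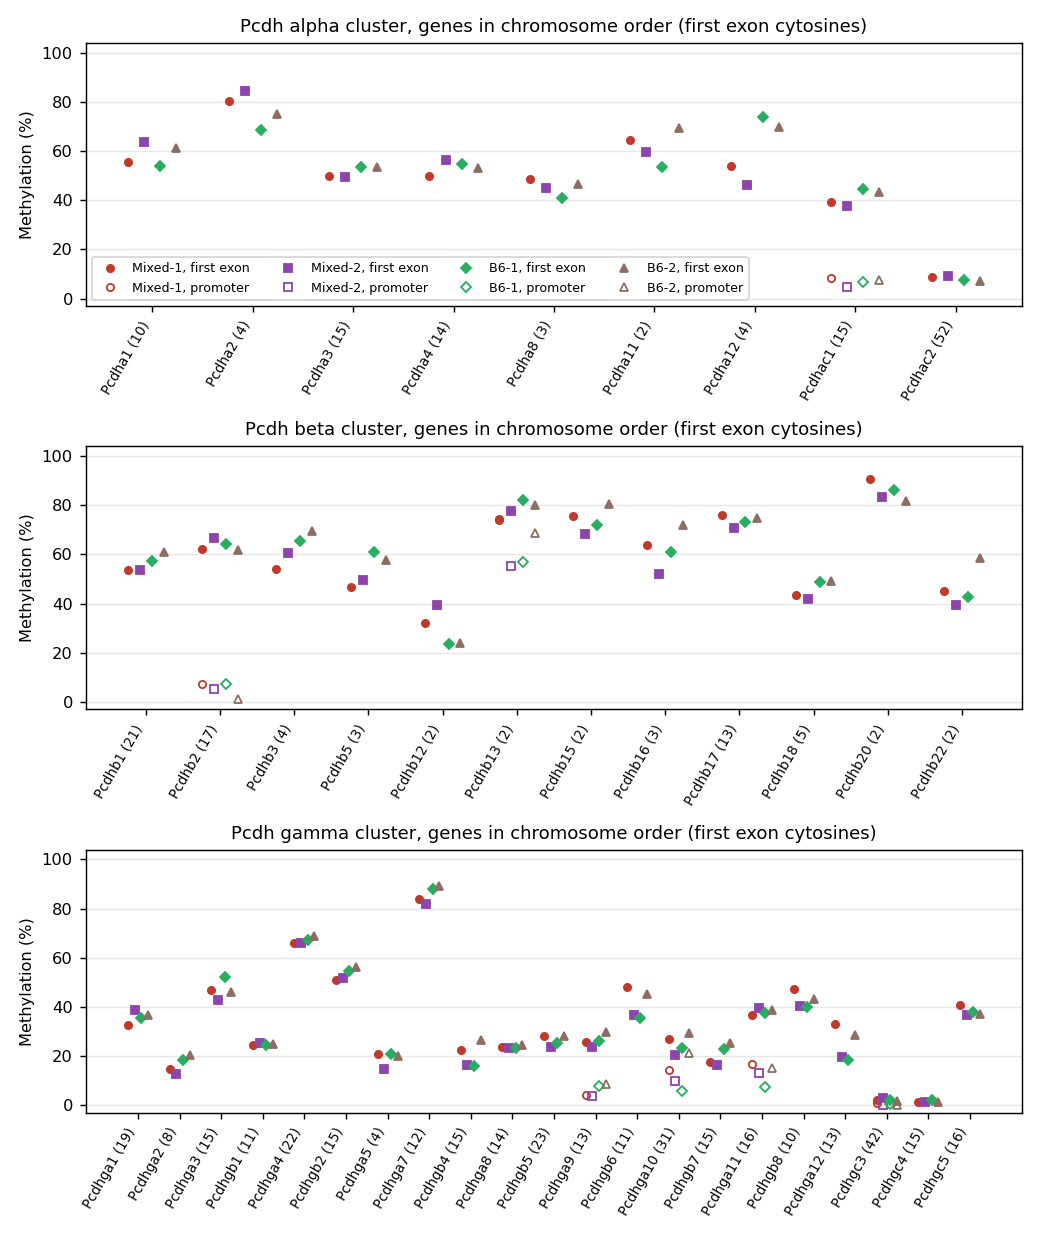
Mean methylation (%) of each clustered protocadherin gene in chromosome order, with the number of first exon cytosines in brackets; filled symbols are first exons, open symbols promoters, and each symbol is 1 mouse. Symbols of 1 gene lie close together beside the spread between genes, from 1.64% for Pcdhgc4 to 85.7% for Pcdhga7, and all open symbols but those of Pcdhb13 lie at or below 21.2%.

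Among alpha genes other than the C-type, the first gene, Pcdha1, had 10 cytosines at 55.6%, 63.5%, 53.7% and 61.3%. Pcdha3 stood at 49.9%, 49.5%, 53.3% and 53.5% over 15 cytosines, and Pcdha4 at 49.7%, 56.5%, 54.7% and 53.0% over 14. These genes code for variable exons used one by one in neurons. Their strain groups overlapped in Pcdha1 and Pcdha4 and not in Pcdha3, where Mixed minus B6 was -3.71 points by means over cytosines and 3.11 points by pooled reads. Neighbours in the order of levels, such as Pcdha3 and Pcdha4, did not differ beyond the spread between mice. No alpha exon other than Pcdhac2 had a mean below 41.2%.

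In the beta cluster 3 genes had at least 10 cytosines. Pcdhb17 had the highest mean of them, with 75.9%, 70.5%, 73.2% and 74.8% in the mice. Pcdhb1, the first beta gene, had 53.7%, 53.8%, 57.3% and 60.9%. The Pcdhb2 first exon was at 62.3%, 66.7%, 64.2% and 61.9% over 17 cytosines. In every mouse Pcdhb17 was the highest of these first exons and Pcdhb1 the lowest. The last beta gene, Pcdhb22, was read at 2 cytosines only and had 45.3%, 39.4%, 42.5% and 58.5%.

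The gamma cluster held the extremes. Pcdhga7 had the highest mean of a first exon, not resolved from the 85.3% of Pcdhb20 over 2 cytosines, with 84.1%, 81.7%, 88.1% and 89.0% over 12 cytosines between 1452 and 1613 bp from its start. Pcdhga4 had 66.2%, 65.9%, 67.2% and 69.0% over 22 cytosines, and Pcdhgb2 51.0%, 51.9%, 54.5% and 56.4% over 15. In these 3 genes both B6 mice were above both Mixed mice by means over cytosines, but in Pcdhgb2 Mixed minus B6 was -3.95 points by that measure and 3.37 points by pooled reads. Pcdhga3 was next, with 46.8%, 43.0%, 52.1% and 46.1%, and its groups overlapped. The first gamma gene, Pcdhga1, had 32.6%, 38.6%, 35.6% and 36.6%.

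At the low end of the gamma genes other than the C-type, Pcdhgb4 had 22.6%, 16.2%, 15.9% and 26.7%, and Pcdhgb7 had 17.7%, 16.4%, 22.9% and 25.3%, each over 15 cytosines. Their levels overlapped from mouse to mouse, so their order was not resolved. The largest ranges between mice among genes with 10 or more cytosines were in Pcdhga12, at 33.0%, 19.6%, 18.3% and 28.8%, in Pcdhgb6, at 48.2%, 36.9%, 35.5% and 45.3%, and in Pcdhgb4. In each of these 3 genes Mixed-1 and B6-2 were the high mice, so their range did not follow strain. Some exons with fewer cytosines had larger ranges. The largest, 27.5 points in Pcdha12, came without overlap between strains, and the next, 19.8 points in Pcdhb16, with overlap. Gamma A and gamma B genes, the subfamilies that alternate along the cluster, had first exon means of 38.8% ± 1.78 over 167 cytosines and 31.8% ± 2.58 over 100 (SD, n = 4 each), with gamma A the higher in every mouse. The median over genes was 26.3% in both, over 11 and 7 genes.

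The C-type genes held the least methylated sequence of the clusters, but not all of them were low. Pcdhac2, whose first exon spans 37143678 to 37146530, had 8.60%, 9.09%, 7.59% and 7.18% over 52 cytosines. Pcdhgc3, with its first exon from 37806410 to 37808977, had 2.06%, 2.93%, 2.19% and 1.75% over 42 exon cytosines. Pcdhgc4 ran from 1.41% to 2.11% over 15. The next lowest first exon with at least 10 cytosines was Pcdhgb4 at 20.4%. Pcdhac1 and Pcdhgc5 were instead in the middle range, with first exon levels of 39.1%, 37.4%, 44.6% and 43.5% for Pcdhac1 and of 40.6%, 36.6%, 37.8% and 37.2% for Pcdhgc5.

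Over all of them, C-type first exons had 12.6% ± 0.260 (SD, n = 4) and the other alpha and gamma first exons 39.4% ± 1.80 (SD, n = 4). The difference of -26.8 points ± 1.99 (SD, n = 4) had the same sign in all 4 mice, with an exact permutation p of 0.13. Position differed between these genes. The Pcdhgc4 cytosines lay 338 to 564 bp from the start, and those of Pcdhgc5 1976 to 2581 bp. In the first 500 bp the C-type genes had a mean of 7.05% and the other alpha and gamma genes 20.5%. In the next 500 bp these means were 2.99% and 46.6%, and from 1000 to 1500 bp 13.6% and 52.0%. In the 500 bp after that the C-type mean was the higher, at 46.3% over 6 cytosines against 40% over 46. From 2000 bp the next bin held 10 C-type cytosines, all of Pcdhgc5, at 41.3% and 37 others at 58%.

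Methylation was lower near the start of the exon than further along it. In the gamma cluster the mean was 15.7% ± 0.933 (SD, n = 4) over 130 cytosines in the first 500 bp, 36.8% ± 1.36 (SD, n = 4) over 69 in the next 500 bp and 42.2% ± 2.90 (SD, n = 4) over 72 in the next. The alpha cluster had 13.8% in the first 500 bp, 31.9% in the next, 23.0% in the bin after it, read in Pcdhac2 alone, and 59.9% in the bin that starts at 2000 bp. Its 42 cytosines in the first 500 bp were 28 of Pcdhac2, 11 of Pcdhac1 and 3 of Pcdha8. The Pcdha8 mean was 45.3%. The beta cluster had 39.3%, 79.7% and 77.2% in the first 3 bins and 55.2% in the bin after them. Different genes fill different bins, so these profiles mix position with gene.

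**Figure D3:**
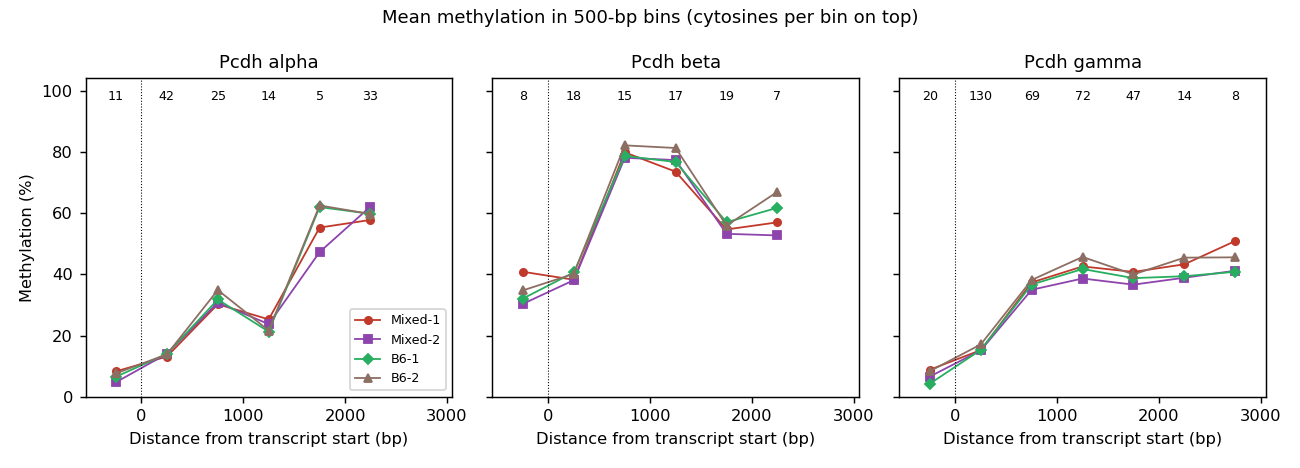
Mean methylation (%) of common cytosines in bins of 500 bp against the distance from the transcript start (bp), by cluster and mouse, with the number of cytosines per bin on top. In all 4 mice the first 500 bp lie below the next bin, at 13.8% against 31.9% in alpha, 39.3% against 79.7% in beta and 15.7% against 36.8% in gamma. In alpha the first 500 bp hold the C-type Pcdhac1 and Pcdhac2 and only 3 other cytosines, of Pcdha8.

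The same genes, compared with themselves, showed the gradient too. In 18 genes cytosines were read both in the first 500 bp of the first exon and further on, and in 17 of them the later part had the higher mean, in 13 of them in every mouse. The alpha genes among the 18 were the C-type Pcdhac1 and Pcdhac2 only. In Pcdhgb1, Pcdhgb4, Pcdhga8 and Pcdhga9 at least 1 mouse had the opposite sign, and in Pcdhgb1 the mean difference was 0.33 points. This comparison was chosen after seeing the data. The mean difference over genes was 21.5, 20.6, 22.8 and 23.3 points by mouse, or 22.1 points ± 1.23 (SD, n = 4), with an exact permutation p of 0.13. The largest steps were in Pcdhga3, from 26.7% to 87.6%, in Pcdhga1, from 23.6% to 81.9%, and in Pcdhb1, from 28.7% to 77.3%. Pcdhgc4, where the later part had the lower mean, had 1.80% and 0.989%, both near 0. Pcdhgc3 went from 0.494% to 3.30% and Pcdhac2 from 1.59% to 15.7%, with its highest cytosine at 40.4%. Pcdhac1 was at 36.2% in its first 500 bp, above Pcdhac2, Pcdhgc3 and Pcdhgc4 there.

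**Figure D4:**
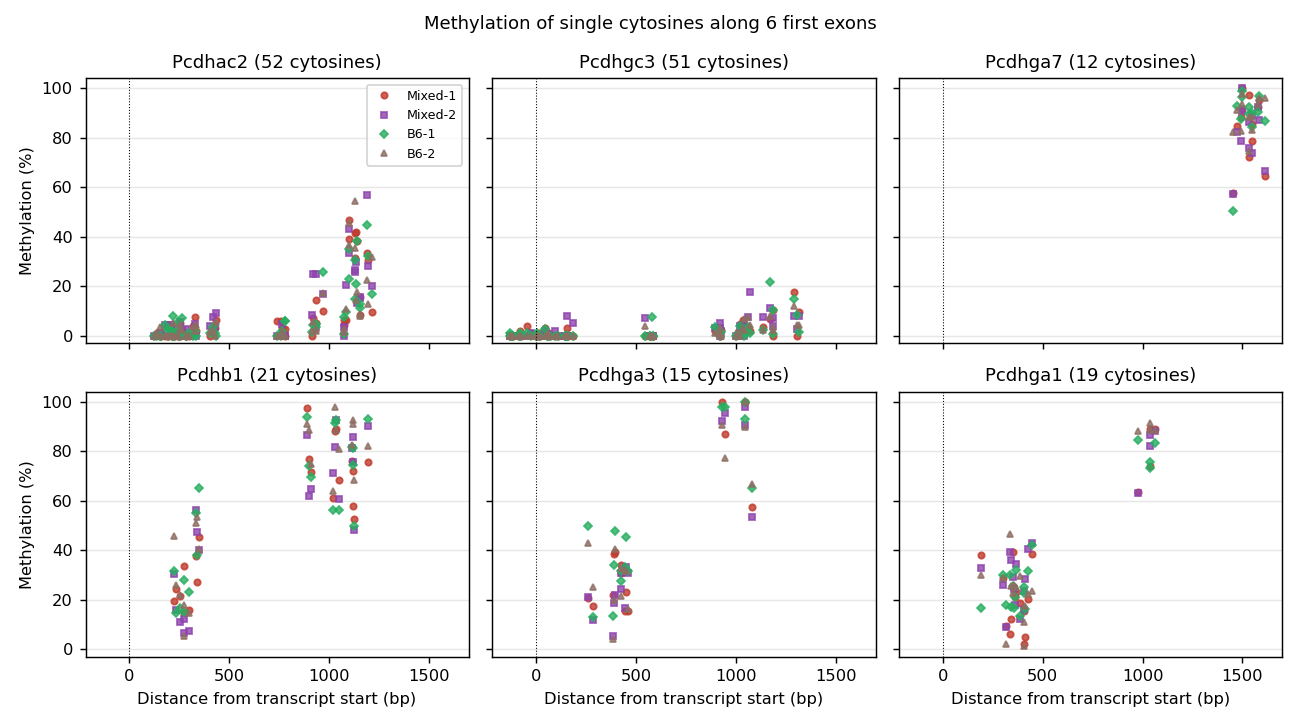
Methylation (%) of single cytosines against the distance from the transcript start (bp) in 6 clustered protocadherin genes, each symbol a mouse. Pcdhac2 and Pcdhgc3 stay low over the first 500 bp, with means of 1.59% and 0.494% there, whereas Pcdhb1, Pcdhga3 and Pcdhga1 step from 28.7%, 26.7% and 23.6% to 77.3%, 87.6% and 81.9% and Pcdhga7 was read only far from its start.

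Promoters were less methylated than the variable exons behind them, as far as they were read. The 39 promoter cytosines came from 7 genes and all lay within 500 bp of the start. Exon cytosines reached further from it, so the comparison mixes feature with distance. Over all clusters the mean was 12.6% in the 500 bp upstream, 17.5% in the first 500 bp of exon and 41.6% in the next. The 11 alpha promoter cytosines, all of Pcdhac1, had means of 8.31%, 4.78%, 6.56% and 7.66%. The 20 gamma promoter cytosines, of Pcdhgc3, Pcdhga9, Pcdhga10 and Pcdhga11, had 8.86%, 6.62%, 4.30% and 8.39%. The 8 beta promoter cytosines, of Pcdhb2 and Pcdhb13, had 40.8%, 30.4%, 32.1% and 34.8%. The beta mean joined unlike genes, since the Pcdhb2 promoter was at 5.29% ± 2.98 (SD, n = 4) and the Pcdhb13 promoter at 63.7% ± 9.16 (SD, n = 4). In Mixed-1 the Pcdhb13 promoter, at 74.3%, was not below its exon, at 74.1%.

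First exons exceeded promoters by 26.4 points ± 1.91 in alpha, 27.1 points ± 5.17 in beta and 23.5 points ± 1.75 in gamma (SD, n = 4 each), in every mouse and with an exact permutation p of 0.13 in each cluster. Restricted to the 7 genes read in both, a setting chosen after seeing the data, the differences were 34.3, 30.8 and 10.9 points. The gamma value moved most. Among its genes was Pcdhgc3, with its promoter at 0.326% and its exon at 2.23%. At a minimum coverage of 20 the beta difference was 8.35 points with an exact p of 0.25 and no longer had one sign in all mice. With reads pooled over cytosines it was 17.7 points, while equal weight for genes gave 44.0 points in alpha. Promoters of alpha and gamma differed by -0.217 points ± 1.74 (SD, n = 4), with an exact p of 0.75, and the sign changed without Mixed-2, where it was 0.323 points. The values without Mixed-1, B6-1 and B6-2 were -0.107, -1.04 and -0.0437 points. Beta promoters exceeded those of gamma by 27.5 points ± 3.44 (SD, n = 4), with an exact p of 0.13.

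Constant exons could be read in the alpha cluster only. Its 7 cytosines in exons behind the variable exon had means of 55.5%, 47.3%, 50.6% and 41.2%. They exceeded the alpha variable exons by 15.4 points ± 6.63 (SD, n = 4) in all mice, with an exact permutation p of 0.13. The sign depended on Pcdhac2. Against variable exons without the C-type genes the difference was -7.46 points, and with each gene weighted equally it was -2.20 points. The 154 other common cytosines of the region had a mean of 49.0% ± 0.954 (SD, n = 4). The 44 of them in the Taf7 window lay near 0, and the remaining 110 had a mean of 68.5% ± 1.33 (SD, n = 4).

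CpG content did not order the genes in the same way in each cluster. Across the 42 first exons the level and the observed-to-expected CpG ratio had a Pearson's r of -0.276 and a Spearman's rho of -0.298. The correlation was 0.529 over the 9 alpha genes, 0.115 over the 12 beta genes and -0.320 over the 21 gamma genes by Pearson's r. These are descriptions across genes that share libraries and, in part, sequence, and genes are not independent replicates. Pcdhgc5 and Pcdhga7 had low ratios of 0.349 and 0.398 and levels of 38.0% and 85.7%, while Pcdhgc3 had 0.721 and 2.23%.

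The design compared mixed background with C57BL/6 mice. No clustered protocadherin cytosine was called at an adjusted p under 0.01 and a difference of 25 points, by a logistic model with overdispersion moderated by limma, beside 70 of 1276684 CpG10 sites, or 0.00548%. The smallest adjusted p among the members was 0.167. At an unadjusted p under 0.05 and 25 points, 10 members (1.74%) passed, beside 0.295% of all CpG10 sites. A limma fit on log2 ratios gave 0 calls over all sites. At its unadjusted threshold 10 members (1.74%) passed, beside 3105 of all CpG10 sites, or 0.243%. Members are rich in partly methylated sites, where such differences are more frequent: 2.22% of all CpG10 sites with a mean of 20% to 80% passed the unadjusted threshold, and 3.45% of the 290 members of that range. Without Mixed-1, Mixed-2, B6-1 or B6-2 the call count over all sites was 222, 276, 34 or 37, and no member was called in any of these fits.

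The 10 cytosines at the unadjusted threshold of the logistic model lay in 8 genes, and 9 of them were lower in the Mixed mice. Of all CpG10 sites at this threshold, Mixed mice were lower at 1912 and higher at 1854. Over all 574 members, 291 cytosines had the lower mean in the Mixed mice and 257 the higher, with a median difference of -0.061 points. The exception had the smallest p, and it is singled out after its values were seen. It lay 2338 bp from the start of Pcdha2, an alpha variable exon gene, and was at 90% of 30 reads in Mixed-1, 95.8% of 24 reads in Mixed-2, 34.6% of 127 reads in B6-1 and 51.5% of 97 reads in B6-2. Both Mixed mice were high and were read less deeply, and whether the depth or a sequence difference between strains had a part in it was not tested. Next came a Pcdhb18 cytosine at 34.1% and 44.8% in the Mixed mice and 75.8% and 73.8% in the B6 mice, with an adjusted p of 0.851. Pcdha12, with fewer than 10 cytosines, was also outside the rule for named genes. Its 4 cytosines had means of 54.0%, 46.3%, 73.7% and 69.6%, without overlap between strains.

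**Figure D5:**
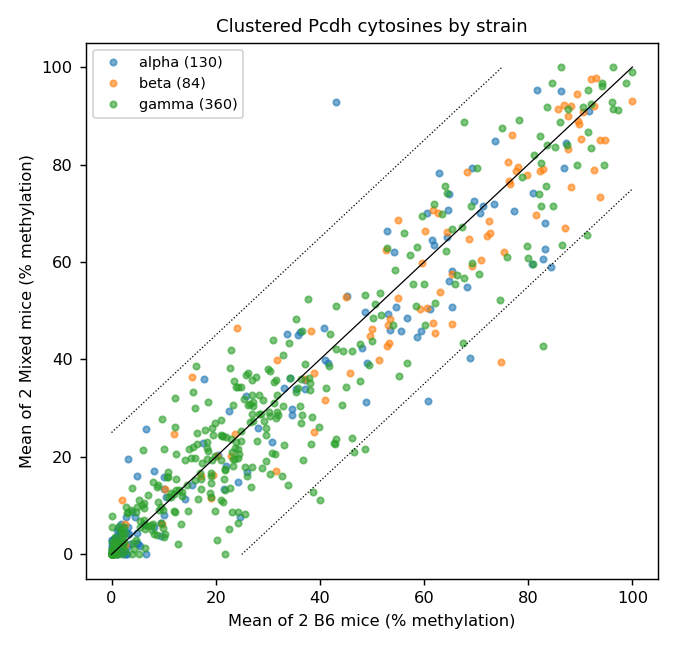
Mean methylation (%) of the 2 Mixed mice against the mean of the 2 B6 mice for each of 574 clustered protocadherin cytosines, coloured by cluster; the solid line marks equality and the dotted lines a difference of 25 points. Most cytosines lie between the dotted lines, and the alpha point far above them is the Pcdha2 cytosine at 2338 bp.

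Summed over genes, 0 of 16561 start windows with at least 5 common cytosines were called at an adjusted p under 0.05 and 10 points by the same model, a background of 0%, and none of the 30 clustered protocadherin windows among them was. At an unadjusted p under 0.05 and 10 points, 120 windows passed, or 0.725%, and 1 clustered protocadherin window was among them. This was Pcdhb1, lower in the Mixed mice by a difference of -11.2 points over its pooled reads, with an adjusted p of 0.648. The smallest adjusted p of a clustered protocadherin window was 0.518, for Pcdhgb7, at -7.41 points and so under the 10 points required. The limma fit on log2 ratios also called 0 windows, with 53 at the unadjusted threshold. Leaving out Mixed-1 gave 3 calls over all windows, none of them in the clusters.

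Mean levels by cluster did not separate the strains beyond what 2 mice a group can show. Mixed minus B6 was -3.11 points in beta first exons, where both Mixed mice were below both B6 mice, with an exact two-sided permutation p of 0.33 (2 of 6 splits), the smallest that 2 against 2 mice allow. With pooled reads this difference was -5.94 points. In alpha first exons Mixed minus B6 was -0.755 points and in gamma first exons -1.38 points, with exact p values of 0.667. Promoter differences were -0.563 points in alpha, 2.17 in beta and 1.39 in gamma, and each changed sign without 1 mouse: 1.20 without Mixed-2, -3.07 without Mixed-1 and -0.656 without B6-1. With pooled reads the beta promoter difference was 11.5 points, without overlap and with an exact p of 0.33, from 8 cytosines in Pcdhb2 and Pcdhb13. Of the 42 first exons, 28 had the lower mean in the Mixed mice and 14 the higher, by means over cytosines. Of the 30 start windows with at least 5 cytosines, 20 were lower in the Mixed mice by this measure and 16 by pooled reads. Over all 16561 start windows, the B6 mice had the higher level in 8165 and the lower in 8205 by means over cytosines. By pooled reads these counts were 8355 and 8016. Of the 25 clustered protocadherin windows with a level of 20% to 80%, the strains did not overlap in 8, or 32%. The share was 38.1% of the 1307 windows of that range over all genes. In all 8 the Mixed mice were lower by means over cytosines, beside 208 of 498 over all genes. By pooled reads Mixed minus B6 was positive in Pcdha3 and Pcdhgb2, at 3.11 and 3.37 points, and negative in the rest of the 8. The Mixed mice had the lower level in 17 of the 25 windows by means over cytosines and in 13 by pooled reads. Over all genes these counts were 607 and 595 of 1307. With exact tests of 2 against 2 mice, none of these differences can pass 0.05.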

How the data were processed

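Whole livers of 4 male mice were profiled by ERRBS. The authors digested DNA with MspI, selected fragments of 70 to 320 bp, sequenced single-end reads of 50 bases and mapped them to mm10. The paper's discussion describes ERRBS as combining TaqαI with MspI, and fragment ends were counted here for MspI alone. The paper names BSMAP for mapping, and the submitters' processing notes name Bismark and SAMtools. The deposited files give the coverage of each CpG cytosine and strand as a count, and the percent of reads with C and with T, without normalization and with a minimum of 10 reads. Replicates were not pooled.

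Sites present in all 4 mice were kept, and methylated reads were computed from percent and coverage. First exons, and 1000 bp upstream of them, came from the RefSeq annotation of GRCm38.p6, whose coordinates are those of mm10. A site in several windows went to the nearest start. Levels are means over cytosines per mouse. Errors are SDs over mice.

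Features were compared within mice by exact sign-flip permutation and strains by exact permutation of 2 against 2, both two-sided. Strain-variable cytosines and start windows came from a logistic model per row with overdispersion, kept at 1 or above, moderated by limma 3.58.1 (squeezeVar; prior from rows with a pooled level of 5% to 95%) and Benjamini-Hochberg adjustment over all rows. Fits with 1 residual degree of freedom took the prior of the 4-mouse fit. The model was tested on simulated data. Software was R 4.3.3, Python 3.11.15, numpy 2.4.6, scipy 1.17.1, pandas 2.3.3, pysam 0.24.0 and matplotlib 3.10.9.

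Named genes were the C-type genes, the first and last gene of each cluster and any member called between strains. Among genes with at least 10 common cytosines, the 4 highest and 4 lowest of each cluster were named. So were the 3 with the largest range over mice among genes with that many cytosines. Members, lists and tests were chosen with earlier results of these data known. Alternatives were a coverage of 20, a coverage ceiling at the 99.9th percentile, equal weight for genes, pooled reads, merged strands, curated transcripts, 500 bp upstream, other bounds and thresholds, limma on log2 ratios with an offset of 0.5 reads, the replicate block and each mouse left out. Leaving out C-type genes, and keeping only genes read in exon and promoter, were added after seeing the data. Sequence of the clusters is not shown here.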

Additional observations from a re-analysis of the deposited data

Results flagged for a closer look

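Of the genes without a common cytosine, Pcdha5, Pcdhb7, Pcdhb10 and Pcdhb14 were read in some of the mice, outside the comparisons above. Pcdha5 was read in both B6 mice and in neither Mixed mouse, at 7 and 9 cytosines with means of 32.3% and 20.6%, or 26.4% over the mice. Pcdhb7 had a mean of 70.0% over 3 mice, from a cytosine at 20% of 10 reads in Mixed-1 and another at 95.5% of 22 reads in B6-1 and 94.4% of 18 reads in B6-2. Pcdhb10 was at 95% in B6-1, from 2 cytosines of 10 reads each, and Pcdhb14 at 75% in B6-1, from a cytosine of 16 reads. In the windows of all members, 95 cytosines were read in both B6 mice and in neither Mixed mouse, and 0 in the opposite way. Both B6 libraries were deeper than both Mixed libraries, and the parts of depth and of strain in this cannot be told apart.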

How the results depend on the processing

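Outside the strain comparisons, 142 of 150 alternative values kept their direction and, for counts and shares, their size. Of the 150, 36 were identical to the reported value, nearly all under the coverage ceiling, curated transcripts or 500 bp upstream, which left the members as they were and so show no stability. Alpha minus gamma promoters turned from -0.217 points to 1.67 at a coverage of 20, 1.42 with pooled reads, 0.267 with merged strands and 0.323 without Mixed-2. Alpha constant minus variable exons turned to -2.20 with equal weight for genes and -7.46 without C-type genes. The share of partly methylated cytosines was 66.9% between 10% and 90% and 59.3% without C-type genes. At a coverage of 20, alpha minus beta and beta minus gamma promoters were -44.0 and 45.7 points.

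Among strain differences of cluster means, the sign turned with pooled reads in alpha first exons (1.81 points), gamma first exons (0.536) and gamma promoters (-0.642), and with equal weight for genes in gamma promoters (-0.442). With pooled reads the difference was also larger in beta first exons (-5.94) and beta promoters (11.5). Strain-variable cytosines over all sites numbered 243 at an adjusted p under 0.05 and 10 points, 0 by limma, and 34 to 276 with a mouse left out. Start windows numbered 0 to 3 with a mouse left out.

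With a mouse left out, first exons minus promoters ranged from 25.7 to 27.2 points in alpha, 26.1 to 29.7 in beta and 22.8 to 24.0 in gamma. Promoter differences of alpha and gamma ranged from -1.04 to 0.323 points, and strain differences from -2.33 to 1.20 in alpha, -3.07 to 7.40 in beta and -0.656 to 3.44 points in gamma promoters.

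Nothing but a shared number, 1 or 2, ties a Mixed to a B6 mouse. Deviations of same-numbered mice had a correlation of -0.0673 over 290 members. With the replicate block, 139 cytosines were called over all sites, 0 of them members, and 0 start windows. The blocked strain differences of cluster means equal the unblocked ones, -3.11 points in beta first exons for example, and 2 pairs cannot reach an exact p under 0.5.

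Depth limits single sites most: at 10 reads a level moves in steps of 10 points, and reads without molecular identifiers are not independent molecules. ERRBS does not tell the forms of modified cytosine apart. Genes without a cytosine in reach of an MspI fragment of the selected size were not read, except for Pcdha11 at 2 cytosines and Pcdhb13 at 6.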
